A study of Mus musculus with 42 samples.

Results

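The 10 genes described here encode building blocks and regulators of the neuronal cytoskeleton: the β-tubulins Tubb2a, Tubb2b and Tubb3, the α-tubulins Tuba1a and Tuba4a, the microtubule-associated proteins Map1b, Map2 and Mapt (tau), and the β-thymosins Tmsb4x and Tmsb10. They were measured in developing Purkinje cells and in Stellate/Basket cells of the mouse cerebellum. Every probe set of the Affymetrix MOE430.2 array that the annotation assigns to one of these symbols alone was taken, which gave 25 probe sets for 10 of 18194 named genes. A further 2 probe sets carry one of the symbols together with another locus, never exceeded 6.35 on the log2 scale, and were not used.

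All arrays came from cerebella of CB6-Tg(Gad1-EGFP)G42Zjh/J (G42) mice, which carry a Gad67-GFP bacterial artificial chromosome transgene, were kept on ordinary chow under a normal light cycle, and are labelled male throughout. Slices were cut in artificial cerebrospinal fluid with the blockers AP5, CNQX and TTX, digested mildly with a bacterial protease and triturated, and cells were picked by hand for their GFP and the size of the soma. Purkinje cells, large GABAergic neurons whose axons leave the cerebellar cortex, were sampled at 7 ages from postnatal day 3 (P3) to P56 (25 arrays, with 3 each at P3, P7 and P14 and 4 each at P21, P28, P35 and at P56), and Stellate/Basket cells, the interneurons of the molecular layer, at P14 (4 arrays), P21 (3), P28 (4), P35 (2) and P56 (2). The number of animals and cells behind an array is not given in the sources used here, and p-values measure the spread between arrays that the labels call biological replicates.

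Microtubules are hollow polymers of α- and β-tubulin pairs. Growing neurons express several tubulin genes, and microtubule-associated proteins bind the finished polymer, with Map1b best known from growing axons, Map2 from cell bodies and dendrites, and tau from axons. β-Thymosins are short peptides that bind actin monomers and hold them in reserve from filament assembly. In mouse brain, Tubb2b, Tuba1a, Map1b and both thymosins are known for high expression in immature neurons.

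The stretches before the annotated start of the transcript are shown for 5 of the 10 genes, chosen because their levels set the cell types or ages apart (Tubb3, Tuba1a, Tuba4a, Tmsb4x) or hardly did so (Tubb2a). The sequences are RefSeq's on GRCm38.p6, are written in the direction of transcription and end at the base before the start. Capitals mark the TATA motif TATAA, the GC box motif GGGCGG and the CCAAT motif on either strand. A GC box motif on the opposite strand reads CCGCCC, and a CCAAT motif on the opposite strand reads ATTGG.
Tubb2a, chr13:34078009-34078108, minus strand: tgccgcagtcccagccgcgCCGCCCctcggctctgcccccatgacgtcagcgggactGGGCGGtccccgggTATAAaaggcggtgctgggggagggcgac
Tubb3, chr8:123411453-123411552, plus strand: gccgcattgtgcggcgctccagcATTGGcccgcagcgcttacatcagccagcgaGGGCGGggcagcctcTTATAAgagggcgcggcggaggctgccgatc
Tuba1a, chr15:98953502-98953601, minus strand: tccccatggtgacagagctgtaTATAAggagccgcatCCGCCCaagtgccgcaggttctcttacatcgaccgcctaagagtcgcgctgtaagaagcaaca
Tuba4a, chr1:75219295-75219394, minus strand: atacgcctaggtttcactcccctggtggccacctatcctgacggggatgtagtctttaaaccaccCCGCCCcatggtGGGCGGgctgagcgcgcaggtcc
Tmsb4x, chrX:167209219-167209318, minus strand: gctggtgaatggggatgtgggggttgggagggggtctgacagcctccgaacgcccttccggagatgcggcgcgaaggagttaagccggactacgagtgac

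RefSeq entries were matched for 8 of the 10 genes, and Tubb2b and Mapt had none. Over the 250 bases before the start, TATAA on either strand was found for 5 of the 8 genes (Tubb2a, Tubb3, Tuba1a, Map1b and Tmsb10), against 22.8% of 32851 promoters in the table. Counted from the base before the start as -1, it began at -29 in Tubb2a, -31 in Tubb3, -78 in Tuba1a and -99 in Map1b, and in Tubb3 it overlaps its own copy on the other strand. GGGCGG was found for all 8 genes, against 32.7% of promoters, and CCAAT for 2 of 8 (Tubb3 and Tuba1a), against 33.8%. The share for the genes takes Tmsb10's 3 annotated starts together, and its TATAA lies downstream of another of these starts. The starts listed for Tuba4a and Tmsb4x lie inside the annotated span of their genes. The 50 bases after each start were not searched.

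Some libraries went against their labels. The 6 arrays labelled Purkinje at P3 and P7 had an interneuron marker mean of 8.82 to 10.02 (log2), against 5.53 to 6.34 in the Purkinje arrays of P14 to P56 and 8.76 to 10.57 in the Stellate/Basket arrays of P14 to P35, and their Purkinje marker mean was 6.67 to 9.996, against 12.31 to 12.80 at P14 to P56. Their group means correlated more closely with those of Stellate/Basket cells at P14 (0.963 at P3 and 0.967 at P7, across genes) than with those of Purkinje cells at P14 (0.875 and 0.893). The 2 Stellate/Basket arrays of P56 had a Purkinje marker mean of 12.25 and 10.78 and an interneuron mean of 5.70 and 6.23, and Kit, which defines these interneurons, stood at 5.35 and 6.86, against 9.77 to 10.97 in the earlier Stellate/Basket arrays. The mean of 12 astrocyte and Bergmann glia markers was 6.33 to 8.39 in Purkinje arrays of P14 to P56. In Stellate/Basket arrays it was 6.65 to 8.03 at P14, 9.28 to 9.58 at P21, 10.14 to 10.25 at P28, 9.51 to 9.71 at P35 and 10.39 and 10.98 at P56. Hopx, 1 of the 12, was higher in Purkinje arrays of P14 (12.17 to 12.63) than in Stellate/Basket arrays of P14 (8.80 to 9.75). It raises the Purkinje mean, so similar glial means at P14 do not show equal glial content. The immature neuron mean was 10.34 to 10.90 in Purkinje arrays of P3 and P7 and 6.43 to 7.65 at P14 to P56, and in Stellate/Basket arrays it was 9.73 to 10.04 at P14 and 6.41 to 6.67 at P56. For most of the 10 genes and for counts over lists, comparisons that use these arrays are given beside ones that do not. The number of arrays limits the precision.

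Over the 5 ages that both cell types share, Purkinje cells had less Tmsb4x, Tubb2b, Tmsb10 and Tuba1a and more Tubb3 than Stellate/Basket cells. These 5 of 10 genes were called, 1 higher and 4 lower, where a call needs a limma p under 0.05 after Benjamini-Hochberg adjustment over all probe sets and a log2 difference of at least 1 in size. The same rule called 11.5% of the 17478 genes tested, 6.37% higher and 5.13% lower. The median difference was -0.52 over the 10 genes and 0.02 over all genes. Over P14 to P35, without the P56 arrays, Map2 was also called lower (6 of 10 genes, against 12.2% of all genes). At single ages, taken from P14 to P56 in turn, the rule called 13.3%, 13.5%, 16.5%, 11.3% and 20.5% of all genes.

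Between P3 and P56 in Purkinje cells, the thymosins, Tubb2b, Map2, Tuba1a and Tubb3 fell and Tuba4a rose. That made 7 of 10 genes called, 1 higher and 6 lower, against 16.5% of all genes (8.71% higher and 7.79% lower). The median difference was -1.71 over the 10 genes and -0.04 over all. Since the interneuron and immature neuron markers also separate P3 and P7 from later Purkinje arrays, age and the mix of cells cannot be told apart in this comparison. When the early arrays were left aside, P56 minus P14 gave 3 falls (Tmsb10, Tubb2b and Tubb3) and no rise, against 1.65% of all genes (1.28% higher and 0.372% lower). In Stellate/Basket cells, Tubb3, Tmsb10 and Mapt fell between P14 and P56 and none rose, against 18.7% of all genes called (6.45% higher and 12.2% lower), and here too age and the marker content of the P56 arrays cannot be told apart. Medians were -0.38 over the 10 genes and -0.07 over all genes for Purkinje cells, and -0.61 and 0.06 for Stellate/Basket cells. Of the 10 genes, 1 had a Purkinje change above the Stellate/Basket change and 1 a change below it (Mapt and Tubb2b), against 19.7% of all genes (12.8% above and 6.92% below).

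**Figure D1:**
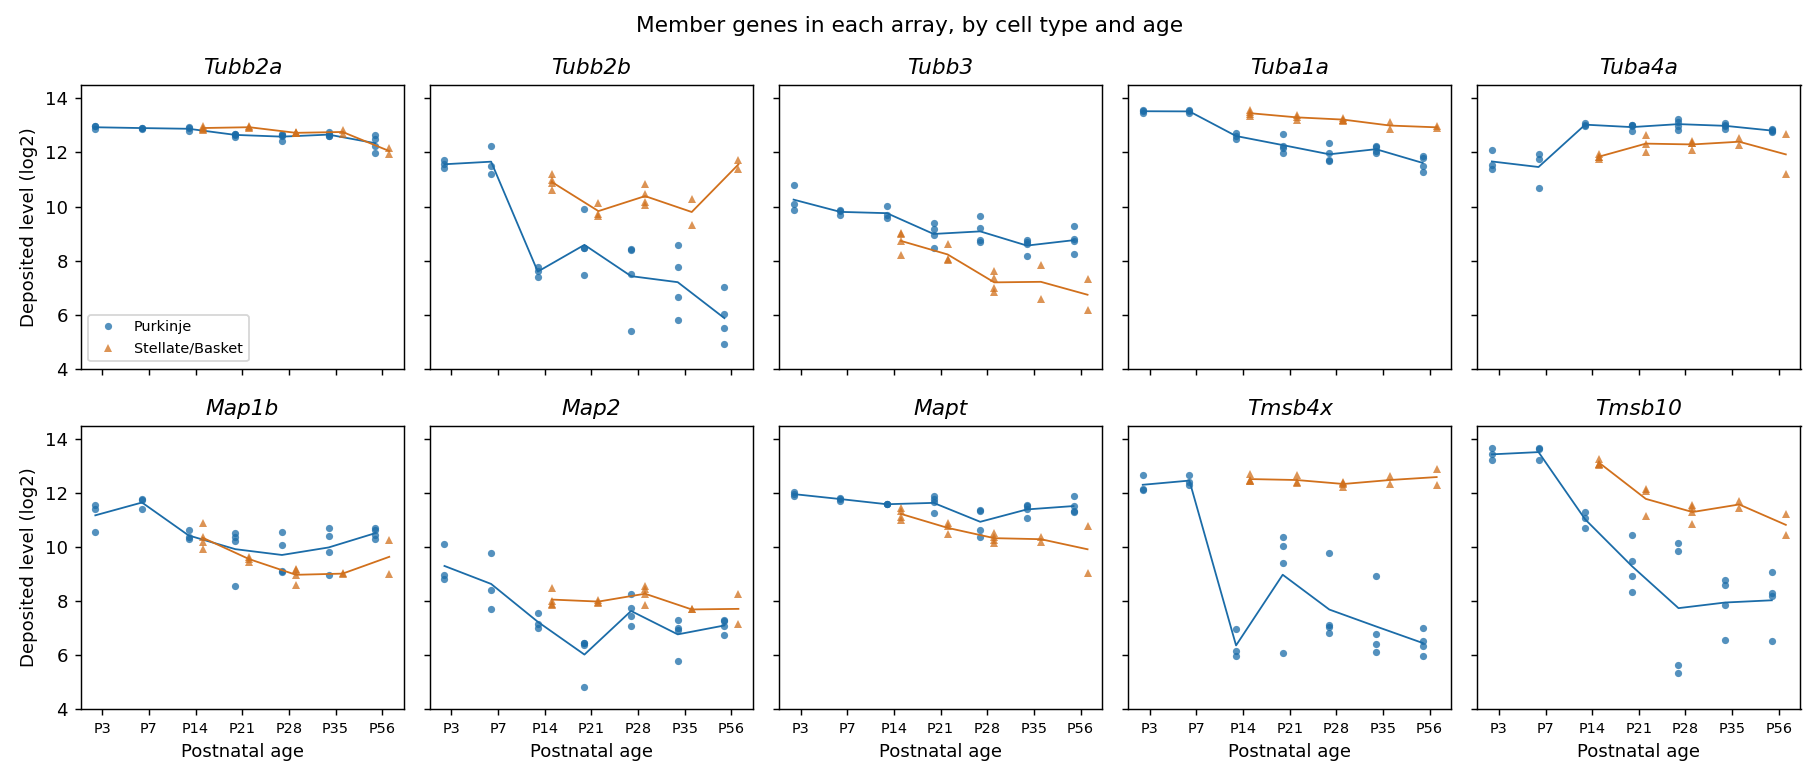
Log2 expression of the 10 genes (vertical axis) by age from P3 to P56 (horizontal axis), 1 panel per gene, each drawn from its probe set with the highest mean. Points are arrays, circles for Purkinje and triangles for Stellate/Basket cells, and lines join the group means. Tmsb4x lies near 12.5 in every Stellate/Basket array and in the Purkinje arrays of P3 and P7, and between 5.98 and 10.37 in Purkinje arrays from P14 on.

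Tubb2b (chr13:34127008-34130354), a β-tubulin isotype of migrating and growing neurons, differed most between the cell types among the 5 tubulins. Purkinje arrays were at 11.71, 11.42 and 11.56 at P3, 12.26, 11.21 and 11.52 at P7, 7.63, 7.76 and 7.39 at P14, 8.47, 9.93, 8.45 and 7.48 at P21, 7.49, 5.39, 8.44 and 8.38 at P28, 8.59, 7.75, 5.81 and 6.65 at P35, and 6.02, 4.91, 7.04 and 5.51 at P56 (log2 values, replicates in order). Stellate/Basket arrays were at 11.19, 10.60, 10.87 and 10.98 at P14, 9.64, 9.73 and 10.12 at P21, 10.84, 10.47, 10.17 and 10.07 at P28, 10.26 and 9.33 at P35, and 11.39 and 11.73 at P56. The arrays of the cell types did not overlap at P14, P28, P35 or P56, and at P21 Purkinje replicate 2 lay within the Stellate/Basket range. The share of all genes without overlap at a given age was 36.9 to 46.2%.

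Over the 5 shared ages Tubb2b averaged 7.33 in Purkinje and 10.50 in Stellate/Basket cells, a difference of -3.16 ± 0.27 (SE), or 8.96-fold lower in Purkinje cells (adjusted p = 1.53e-11). Over P14 to P35 the difference was -2.53, and by age it was between -5.69 at P56 and -1.25 at P21, where it was not called (adjusted p = 0.119). In RNA from picked cells, fewer cells of a type and less RNA per cell cannot be told apart. With the astrocyte and Bergmann marker mean as a covariate, an alternative added after the data were seen, the difference was -0.74 (adjusted p = 0.550). The slope of this covariate comes only from the spread within groups. After P14 the cell types did not overlap in it, so for any gene this fit cannot separate glial content from cell type. At P14, where Stellate/Basket replicates 1 and 2 had glial marker means of 6.66 and 6.65 and the Purkinje arrays 6.46 to 6.59, Tubb2b stood at 11.19 and 10.60 in those Stellate/Basket arrays and at 7.39 to 7.76 in the Purkinje arrays. These glial means include Hopx, which was higher in the Purkinje arrays at P14. The immature neuron mean at that age was 9.73 to 10.04 in Stellate/Basket arrays and 6.90 to 6.97 in Purkinje arrays, and its part in the result was not tested.

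With age, Tubb2b in Purkinje cells was 51.8-fold lower at P56 than at P3 (log2 difference -5.70 ± 0.58, adjusted p = 2.47e-09). Most P56 values lie near or below the array medians of 5.91 to 6.16, where a fold is uncertain. The P3 and P7 arrays also carry the interneuron and immature neuron markers described above. The step P14 minus P7 was -4.07 (adjusted p = 7.57e-06), against 12.6% of all genes called in that step, and every array of P3 and P7 lay above every later Purkinje array. P56 minus P14 was -1.72 ± 0.58 (adjusted p = 0.0469), a call lost when any of 23 of the 40 arrays was left out, with values of -2.11 to -1.40. P56 minus P14 in Stellate/Basket cells was +0.65 (adjusted p = 0.476), with the 2 P56 arrays above all the others, and P35 minus P14 was -1.11. The Purkinje change minus the Stellate/Basket change was -2.37 ± 0.88 (adjusted p = 0.0388). To P35 the same difference was +0.72 and was not called, against 2.47% of all genes.

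Tubb3 (chr8:123411553-123422015), the neuron-specific β-tubulin, was higher in Purkinje cells. Among Purkinje arrays it was at 10.81, 9.88 and 10.08 at P3, 9.87, 9.84 and 9.70 at P7, 9.68, 10.01 and 9.58 at P14, 8.46, 9.16, 9.39 and 8.93 at P21, 9.20, 9.67, 8.77 and 8.69 at P28, 8.18, 8.67, 8.74 and 8.63 at P35, and 8.78, 8.73, 8.24 and 9.27 at P56. Among Stellate/Basket arrays it was at 8.97, 8.21, 9.02 and 8.72 at P14, 8.05, 8.02 and 8.61 at P21, 7.00, 7.62, 6.82 and 7.35 at P28, 6.59 and 7.84 at P35, and 7.32 and 6.16 at P56. Purkinje arrays lay above all Stellate/Basket arrays at P14, P28, P35 and P56, and at P21 the lowest Purkinje array, 8.46, lay below the highest Stellate/Basket array, 8.61.

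Tubb3 averaged 9.03 in Purkinje and 7.62 in Stellate/Basket cells over the 5 ages, 2.65-fold higher in Purkinje cells (+1.41 ± 0.14, adjusted p = 7.24e-10), and +1.25 without P56. It was called higher at 4 of 5 ages, with +0.76 at P21 (adjusted p = 0.0704). With the glial marker covariate the difference was +1.18 (adjusted p = 0.081). Within each cell type the level fell with age. P56 minus P3 in Purkinje cells was -1.5 ± 0.31 (adjusted p = 0.000258), and P56 minus P14 was -1.0 ± 0.31 (adjusted p = 0.0288), a call lost without any 1 of the 3 P14 arrays or of P56 replicates 1 to 3, with values of -1.17 to -0.83. For Stellate/Basket cells, P56 minus P14 was -1.99 ± 0.35 (adjusted p = 4.05e-05), and P35 minus P14, which leaves out the P56 arrays, was -1.51 (adjusted p = 0.00419), against 5.44% of all genes called.

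Tubb2a (chr13:34074278-34078008), the β-tubulin gene next to Tubb2b in the genome, was nearly level. Its arrays lay between 12.79 and 12.98 in Purkinje cells up to P14, between 12.42 and 12.74 at P21 to P35, and at 12.64, 12.51, 11.99 and 12.24 at P56. The Stellate/Basket arrays of Tubb2a lay between 12.70 and 12.99 up to P35 and at 12.16 and 11.95 at P56. Means over the 5 ages were 12.62 in Purkinje and 12.68 in Stellate/Basket cells, a difference of -0.05 ± 0.05 (adjusted p = 0.349). P56 minus P14 passed the adjusted p in each cell type but not the size needed for a call, at -0.53 in Purkinje cells (adjusted p = 0.000601) and -0.85 in Stellate/Basket cells (adjusted p = 4.09e-07). The Stellate/Basket fall rests on the P56 arrays, since the mean was 12.760 at P35 against 12.905 at P14. A limma F test over the Stellate/Basket ages P14 to P35 gave an adjusted p of 0.289. The probe set behind these values may share probes with other tubulins. The other Tubb2a probe set, whose mean levels were lower, was called lower in Purkinje cells, at 6.35 against 7.64 in Stellate/Basket cells (-1.29, adjusted p = 5.35e-09), so the 2 disagree.

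Tuba1a (chr15:98949847-98953501), the main α-tubulin of newborn neurons, separated the cell types by a small but even step. The Purkinje arrays stood at 13.53, 13.58 and 13.47 at P3, 13.52, 13.59 and 13.46 at P7, 12.71, 12.50 and 12.62 at P14, 12.23, 12.70, 11.998 and 12.17 at P21, 11.99, 12.33, 11.70 and 11.71 at P28, 12.06, 11.99, 12.25 and 12.19 at P35, and 11.81, 11.85, 11.30 and 11.50 at P56. The Stellate/Basket arrays stood at 13.49, 13.41, 13.58 and 13.34 at P14, 13.40, 13.30 and 13.20 at P21, 13.27, 13.22, 13.17 and 13.21 at P28, 12.87 and 13.12 at P35, and 12.90 and 12.97 at P56. No Purkinje array of P14 or later reached the lowest Stellate/Basket array of any age, and the 6 arrays of P3 and P7 lay at the level of Stellate/Basket cells at P14.

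Averaged over the 5 ages, Tuba1a was 12.11 in Purkinje and 13.18 in Stellate/Basket cells, 2.1-fold lower in Purkinje cells (-1.07 ± 0.07, adjusted p = 4.67e-15), and -1.01 without P56. The glial marker covariate left this call in place, but that fit cannot separate glial content from cell type. By age the difference was between -1.32 and -0.84 and was called at 3 of 5 ages. In Purkinje cells P56 minus P3 was -1.91 ± 0.14 (adjusted p = 1.71e-12). P56 minus P14 was -0.99 (adjusted p = 3.72e-05) and P56 minus P35 was -0.51 (adjusted p = 0.00674), both short of the size needed for a call. P56 minus P14 in Stellate/Basket cells was -0.52 (adjusted p = 0.0112), and an F test over their ages P14 to P35 gave an adjusted p of 0.169. The probe set may share probes with other α-tubulins.

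Tuba4a (chr1:75214972-75221261), an α-tubulin of mature neurons, muscle and platelets, moved opposite to Tuba1a. Purkinje values were 12.08, 11.55 and 11.38 at P3, 10.69, 11.94 and 11.76 at P7, 12.99, 13.00 and 13.10 at P14, 13.00, 12.97, 13.01 and 12.78 at P21, 12.84, 12.98, 13.13 and 13.25 at P28, 12.88, 13.08, 12.97 and 13.01 at P35, and 12.80, 12.83, 12.75 and 12.87 at P56. Stellate/Basket values were 11.85, 11.95, 11.83 and 11.77 at P14, 12.01, 12.31 and 12.66 at P21, 12.35, 12.08, 12.34 and 12.42 at P28, 12.27 and 12.53 at P35, and 12.67 and 11.19 at P56. Every Purkinje array from P14 on lay above every Stellate/Basket array and above every Purkinje array of P3 and P7.

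The mean over the 5 ages was 12.96 in Purkinje and 12.16 in Stellate/Basket cells, and the difference of +0.80 ± 0.11 (adjusted p = 2.21e-07) was too small for a call, as was +0.78 over P14 to P35. It was called at P14 alone (+1.18, adjusted p = 0.000238). Another Tuba4a probe set was called higher in Purkinje cells (+1.31) and the remaining one was not (-0.06). In Purkinje cells P56 minus P3 was +1.14 ± 0.23 (adjusted p = 0.000252) and P14 minus P7 was +1.57 (adjusted p = 1.44e-05). From P14 to P56 Tuba4a passed no F test over the Purkinje ages (adjusted p = 0.893). The mean of the gene's probe sets gave +0.97 for P56 minus P3, below the size needed.

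Mapt (chr11:104229409-104332090), which encodes tau, was highest in Purkinje arrays of P3 and lowest in Stellate/Basket arrays of later ages. Its Purkinje values were 11.90, 12.05 and 11.96 at P3, 11.83, 11.79 and 11.73 at P7, 11.59, 11.59 and 11.61 at P14, 11.25, 11.78, 11.89 and 11.66 at P21, 10.65, 10.40, 11.37 and 11.35 at P28, 11.57, 11.41, 11.54 and 11.08 at P35, and 11.54, 11.36, 11.30 and 11.91 at P56. Its Stellate/Basket values were 11.02, 11.12, 11.44 and 11.35 at P14, 10.88, 10.48 and 10.79 at P21, 10.26, 10.54, 10.37 and 10.18 at P28, 10.20 and 10.39 at P35, and 10.80 and 9.05 at P56. Purkinje arrays lay above the Stellate/Basket arrays at P14, P21, P35 and P56, and at P28 Purkinje replicate 2 lay within the Stellate/Basket range.

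Mapt averaged 11.42 in Purkinje and 10.50 in Stellate/Basket cells, a difference of +0.92 ± 0.12 (adjusted p = 6.31e-08) that was not called, and +0.75 without P56. Its other probe sets gave +1.47, +1.42 and +0.74, with the first 2 called higher. In Purkinje cells P56 minus P3 was -0.44 (adjusted p = 0.183) for the probe set above, whereas another of its probe sets fell by 1.18 (adjusted p = 0.0128). For Stellate/Basket cells, P56 minus P14 was -1.31 ± 0.28 (adjusted p = 0.000567), a call of this probe set that rests on P56 replicate 3, since without it the value was -0.43 (adjusted p = 0.304). The second-highest of the other differences above, +1.42, belongs to a probe set that fell in both P56 arrays, at 8.90 and 8.23 against 10.17 to 10.45 at P14 (-1.77, adjusted p = 2.01e-07). That probe set was also called for P35 minus P14 (-1.56, adjusted p = 1.76e-05), so the Mapt probe sets differ in how far the fall depends on P56. The Purkinje change between P14 and P56, -0.07, minus the Stellate/Basket change was +1.24 ± 0.38 (adjusted p = 0.0130). Without Stellate/Basket P56 replicate 3 that difference of changes was +0.37 (adjusted p = 0.487), and to P35 it was +0.74 (adjusted p = 0.342). The probe set that fell in both P56 arrays gave +2.19 (adjusted p = 1.83e-06), and to P35, which uses no P56 array, +1.65 (adjusted p = 0.00154), a call.

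Map2 (chr1:66175202-66442583), the dendritic microtubule-associated protein, was lower in Purkinje cells, short of a call over the 5 ages. Its values ran between 7.73 and 10.12 in Purkinje arrays of P3 and P7 (median 8.91), between 4.82 and 8.26 in those of P14 to P56 (median 7.10), and between 7.70 and 8.57 in Stellate/Basket arrays of P14 to P35 (median 7.98). The Purkinje arrays of P21 were at 4.82, 6.46, 6.44 and 6.40 and P35 replicate 1 was at 5.81, and these 5 were the lowest Purkinje values. At P21 they compare with Stellate/Basket arrays of that age at 8.07, 7.92 and 7.98. The difference was -0.99 ± 0.19 over the 5 ages (adjusted p = 5.44e-05) and -1.09 over P14 to P35, where it was called (adjusted p = 5.4e-05). A second Map2 probe set gave -1.08 and was called lower. By age it was called at P21 alone (-1.96, adjusted p = 0.000449). Arrays did not overlap at 3 of 5 ages, where 36.9 to 46.2% of all genes did not overlap at a given age.

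In Purkinje cells Map2 fell between P3 and P56 by 2.20 ± 0.41 (adjusted p = 7.23e-05) and between P7 and P14 by 1.40 (adjusted p = 0.0209). Among steps after P14, Map2 was called for P28 minus P21 at +1.61 (adjusted p = 0.0186), a step in which 0.629% of all genes were called. P21 replicate 1, at 4.82, lay apart from the other 3 arrays of its age at 6.40 to 6.46, and the P28 arrays were at 7.11 to 8.26. The second Map2 probe set went the other way over this step, with means of 5.505 at P28 and 6.02 at P21. None of the 10 genes was called in the Purkinje steps P7 minus P3 (0.0629% of all genes), P21 minus P14 (0.0458%), P35 minus P28 (0.32%) and P56 minus P35 (2.83%), nor in the Stellate/Basket steps P21 minus P14 (1.76%), P28 minus P21 (0.973%), P35 minus P28 (1.23%) and P56 minus P35 (11.4%). P56 minus P14 was -0.14 in Purkinje and -0.34 in Stellate/Basket cells.

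Map1b (chr13:99421464-99516602), the microtubule-associated protein of growing axons, did not differ beyond the call rule between the cell types. Its values ran between 10.56 and 11.80 in Purkinje arrays of P3 and P7 (median 11.49), 8.58 and 10.71 in those of P14 to P56 (median 10.37), and 8.60 and 10.90 in Stellate/Basket arrays of P14 to P35 (median 9.45). The difference was +0.61 ± 0.18 (adjusted p = 0.0063), and the arrays did not overlap at 1 of 5 ages (36.9 to 46.2% of all genes at a given age). In Purkinje cells P14 minus P7 was -1.22 (adjusted p = 0.0395) and P56 minus P7 was -1.13 (adjusted p = 0.0259), against 15.7% of all genes called,, while P56 minus P3 was -0.66 (adjusted p = 0.211). P35 minus P14 in Stellate/Basket cells was -1.33 (adjusted p = 0.0502), just outside the rule. A second Map1b probe set rose in Purkinje cells to 7.83 at P56, against 6.10 at P14 (adjusted p = 0.00822), where the one above gave +0.08.

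**Figure D2:**
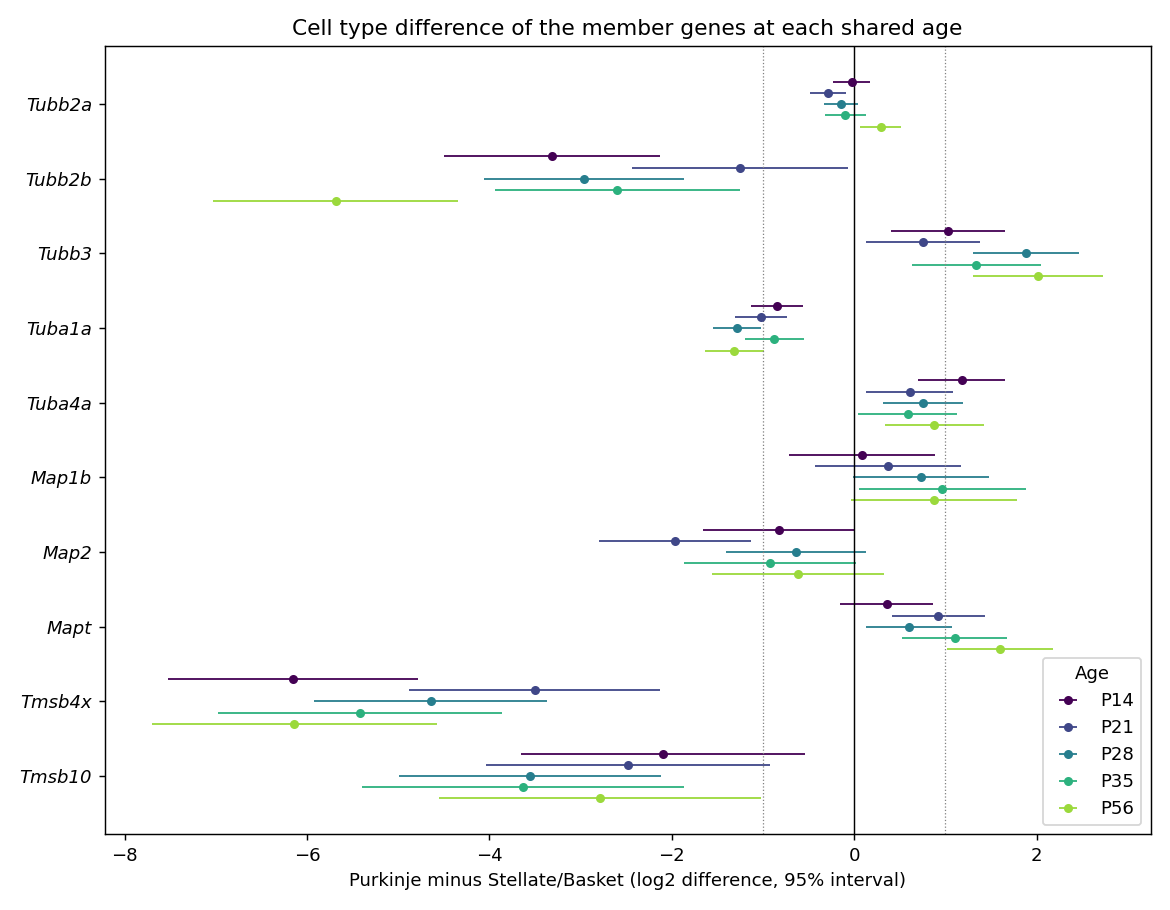
Log2 difference, Purkinje minus Stellate/Basket cells (horizontal axis), for each of the 10 genes (vertical axis) at P14, P21, P28, P35 and P56 (colour), with bars for the 95% interval and dotted lines at a difference of 1 either way. Tmsb4x, Tmsb10, Tubb2b and Tuba1a lie left of 0 at all 5 ages and Tubb3, Tuba4a and Mapt right of it.

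Tmsb4x (chrX:167207093-167213479), the thymosin β4 gene, showed the widest gap between the cell types of the 10 genes. In Stellate/Basket cells the 15 arrays stayed within 12.24 and 12.91 at every age, whereas in Purkinje cells arrays exceeded 12 only at P3 and P7. Purkinje levels of the gene were 12.10, 12.15 and 12.69 at P3, 12.66, 12.43 and 12.31 at P7, 5.99, 6.97 and 6.15 at P14, 6.09, 10.37, 9.44 and 10.04 at P21, 9.77, 7.07, 6.82 and 7.12 at P28, 8.94, 6.78, 6.13 and 6.43 at P35, and 6.33, 5.98, 7.00 and 6.52 at P56. Stellate/Basket levels of the gene were 12.47, 12.44, 12.47 and 12.72 at P14, 12.42, 12.37 and 12.68 at P21, 12.38, 12.41, 12.24 and 12.34 at P28, 12.63 and 12.35 at P35, and 12.29 and 12.91 at P56. No Purkinje array of P14 or later overlapped the Stellate/Basket arrays at any age. Many of these Purkinje values lie near the array medians of 5.91 to 6.16, where a fold is uncertain.

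Tmsb4x averaged 7.32 in Purkinje and 12.49 in Stellate/Basket cells, 36.1-fold lower in Purkinje cells (-5.17 ± 0.31, adjusted p = 3.92e-15), and -4.93 without P56. It was called lower at 5 of 5 ages, with differences of -3.51 at P21 to -6.15 at P14. Within Purkinje cells P56 minus P3 was -5.85 ± 0.67, or 57.8-fold lower at P56 (adjusted p = 2.76e-08), and P14 minus P7 was -6.10 (adjusted p = 7.75e-08). P56 minus P14 was +0.09 in Purkinje cells (adjusted p = 0.954) and +0.07 in Stellate/Basket cells.

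The astrocyte and Bergmann marker mean moved with part of this pattern. With that mean as a covariate the cell type difference was -1.72 (adjusted p = 0.110), in a fit that cannot separate glial content from cell type. At P14, Stellate/Basket replicates 1 and 2 had Tmsb4x at 12.47 and 12.44 with glial means of 6.66 and 6.65, while the Purkinje arrays had Tmsb4x at 5.99 to 6.97 with glial means of 6.46 to 6.59. Hopx, higher in the Purkinje arrays at P14, is part of these glial means. Among Purkinje arrays, the 4 of P21 had Tmsb4x at 6.09, 10.37, 9.44 and 10.04 with glial means of 6.60, 8.05, 7.31 and 7.50, and at P35 replicate 1 had 8.94 with 8.39. P28 replicate 1 had Tmsb4x at 9.77 with a glial mean of 7.48, the highest of its age in each. It also had the highest marker means of its age for oligodendrocytes (7.24) and for endothelial and mural cells (6.67). P28 replicates 3 and 4 had Tmsb4x at 6.82 and 7.12 with glial means of 7.00 and 7.02, and P56 replicate 3 had 7.00 with 7.05.

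Tmsb4x is on the X chromosome, and the X-inactivation RNA Xist varied between arrays that are all labelled male. Xist ran between 6.47 and 11.28 in Purkinje arrays of P14 to P56. In Stellate/Basket arrays of P14 to P35 it was at 7.55 in P35 replicate 2 and at 12.29 to 12.93 in all the others. Those others thus lay above every Purkinje array of P14 to P56, so Xist nearly separated the cell types. The Purkinje arrays of P14 had Xist at 6.47, 6.55 and 6.59, those of P21 at 7.13, 11.24, 11.28 and 10.93, those of P28 at 7.08, 7.22, 10.83 and 11.07, those of P35 at 11.12, 10.68, 7.04 and 6.83, and those of P56 at 10.71, 7.68, 7.59 and 10.72. With Xist as a covariate, Purkinje P56 minus P14 of Tmsb4x was -0.24, and the part of Xist in the spread of Tmsb4x between Purkinje arrays was not tested further.

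**Figure D3:**
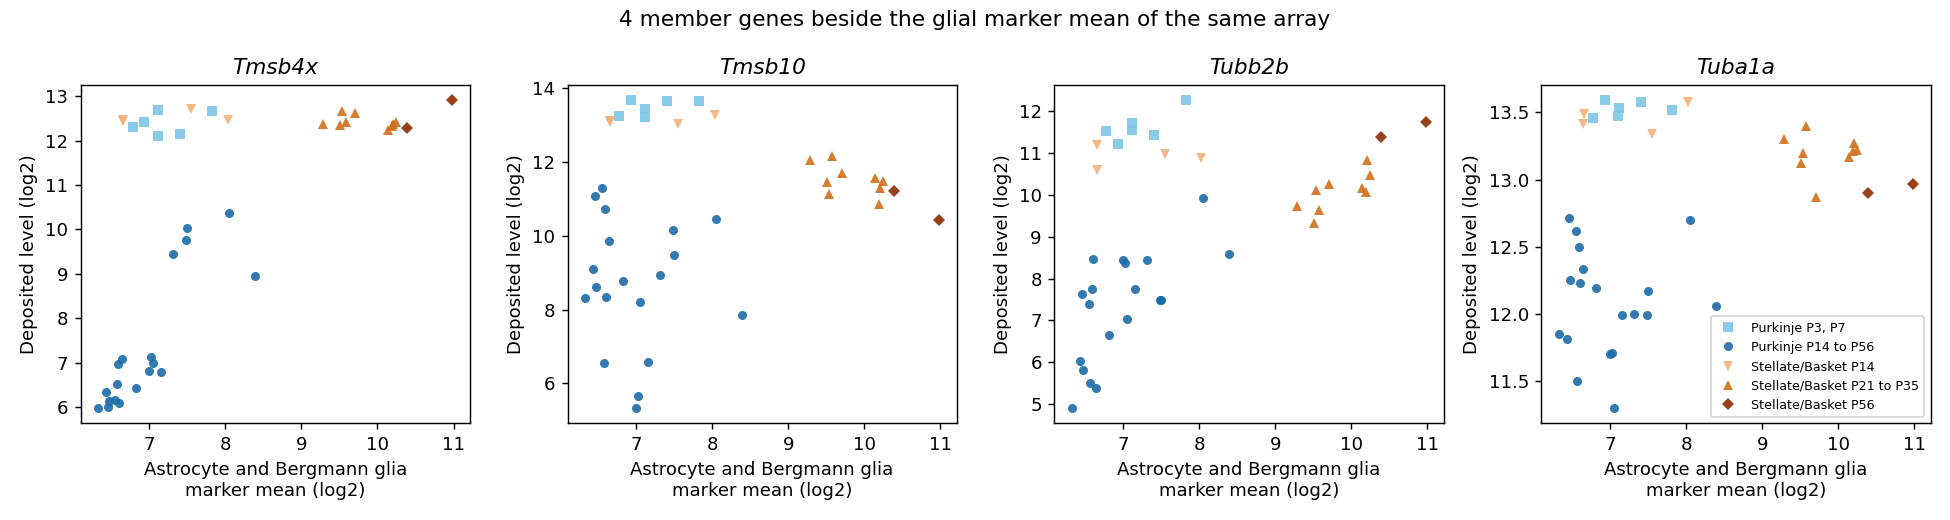
Log2 expression of Tmsb4x, Tmsb10, Tubb2b and Tuba1a (vertical axes) against the mean of 12 astrocyte and Bergmann glia markers (horizontal axis, log2), 1 point per array. Purkinje arrays of P3 and P7 and Stellate/Basket arrays of P14 have high levels of all 4 genes at marker means of 6.65 to 8.03. The Purkinje arrays of P14 to P56, with lower levels, span marker means of 6.33 to 8.39, and those of P14 lie at 6.46 to 6.59. Hopx, 1 of the 12 markers, was higher in Purkinje than in Stellate/Basket arrays at P14.

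Tmsb10 (chr6:72957347-72958748), thymosin β10, was lower in Purkinje cells and fell there with age. In Stellate/Basket cells it was called lower at P56 than at P14, but passed no F test over the ages. Purkinje arrays held it at 13.22, 13.66 and 13.44 at P3, 13.65, 13.67 and 13.25 at P7, 11.07, 10.72 and 11.30 at P14, 8.35, 10.45, 8.94 and 9.48 at P21, 10.15, 9.85, 5.34 and 5.66 at P28, 7.86, 6.57, 8.61 and 8.78 at P35, and 9.10, 8.31, 8.20 and 6.55 at P56. Stellate/Basket arrays held it at 13.10, 13.09, 13.28 and 13.04 at P14, 12.17, 12.06 and 11.14 at P21, 11.30, 11.48, 11.57 and 10.87 at P28, 11.71 and 11.46 at P35, and 11.22 and 10.44 at P56. At each shared age all Purkinje arrays lay below all Stellate/Basket arrays. The Purkinje arrays of P28 split into 2 at 10.15 and 9.85 and 2 at 5.34 and 5.66. The same replicates, 1 and 2 against 3 and 4, also differed in other values. Map1b was at 10.55 and 10.09 against 9.13 and 9.10, and Mapt at 10.65 and 10.40 against 11.37 and 11.35. Xist was at 7.08 and 7.22 against 10.83 and 11.07. The 90th percentile of all values was 9.26 and 9.26 against 8.92 and 8.97. The part of such differences between arrays in the Tmsb10 split was not tested.

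Over the 5 ages Tmsb10 averaged 8.82 in Purkinje and 11.73 in Stellate/Basket cells, 7.52-fold lower in Purkinje cells (-2.91 ± 0.36, adjusted p = 3.07e-08), and -2.94 without P56. The call held at 5 of 5 ages, with differences of -2.09 at P14 to -3.63 at P35. With the glial marker covariate the value was -2.51 (adjusted p = 0.147), in a fit that cannot separate glial content from cell type. At P14, the Stellate/Basket replicates 1 and 2 with glial means of 6.66 and 6.65 had Tmsb10 at 13.10 and 13.09. These glial means include Hopx, which was higher in the Purkinje arrays at P14, and the part of glial content was not tested.

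With age, Tmsb10 in Purkinje cells was 42.2-fold lower at P56 than at P3 (-5.40 ± 0.76, adjusted p = 1.21e-06). P56 minus P14 was -2.99 ± 0.76 (adjusted p = 0.00915) and stayed called whichever array was left out (-3.35 to -2.50, highest adjusted p = 0.0480). P35 minus P14 was -3.08 (adjusted p = 0.045), against 0.521% of all genes called. P56 minus P14 in Stellate/Basket cells was -2.30 ± 0.87 (adjusted p = 0.0399), a call lost without any single P14 or P56 array (-2.68 to -1.91, adjusted p 0.0557 to 0.269). It uses the P56 arrays whose markers go against their label. P35 minus P14, which leaves them out, was not called, with means of 11.585 at P35 and 13.126 at P14. Limma F tests gave an adjusted p of 0.126 over the 5 Stellate/Basket ages and 0.233 over P14 to P35. The second Tmsb10 probe set, which like the first may share probes with related transcripts, also fell in both cell types. Its Purkinje arrays were at 5.05 to 5.82 at P56, against 7.25 to 7.88 at P14 and 11.57 to 11.94 at P3, and its Stellate/Basket arrays were at 7.29 and 5.22 at P56, against 10.63 to 11.16 at P14. For this probe set P35 minus P14 in Stellate/Basket cells was -1.09 (adjusted p = 0.0824), not called.

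The remaining probe sets sharpened some of these results and split others. Of the 25 probe sets, 4 were called higher and 7 lower in Purkinje than in Stellate/Basket cells, against 10.3% of the probe sets tested. Between P3 and P56 in Purkinje cells, 2 rose and 10 fell (15.2% of all), and between P14 and P56 1 rose and 4 fell (1.76%). Between P14 and P56 in Stellate/Basket cells none rose and 7 fell (16.7%). The Purkinje change minus the Stellate/Basket change was called above 0 for 5 and below 0 for 1 (17.6%). Of the 25, 6 never exceeded 6.5 in any array, and these contributed no call.

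**Figure D4:**
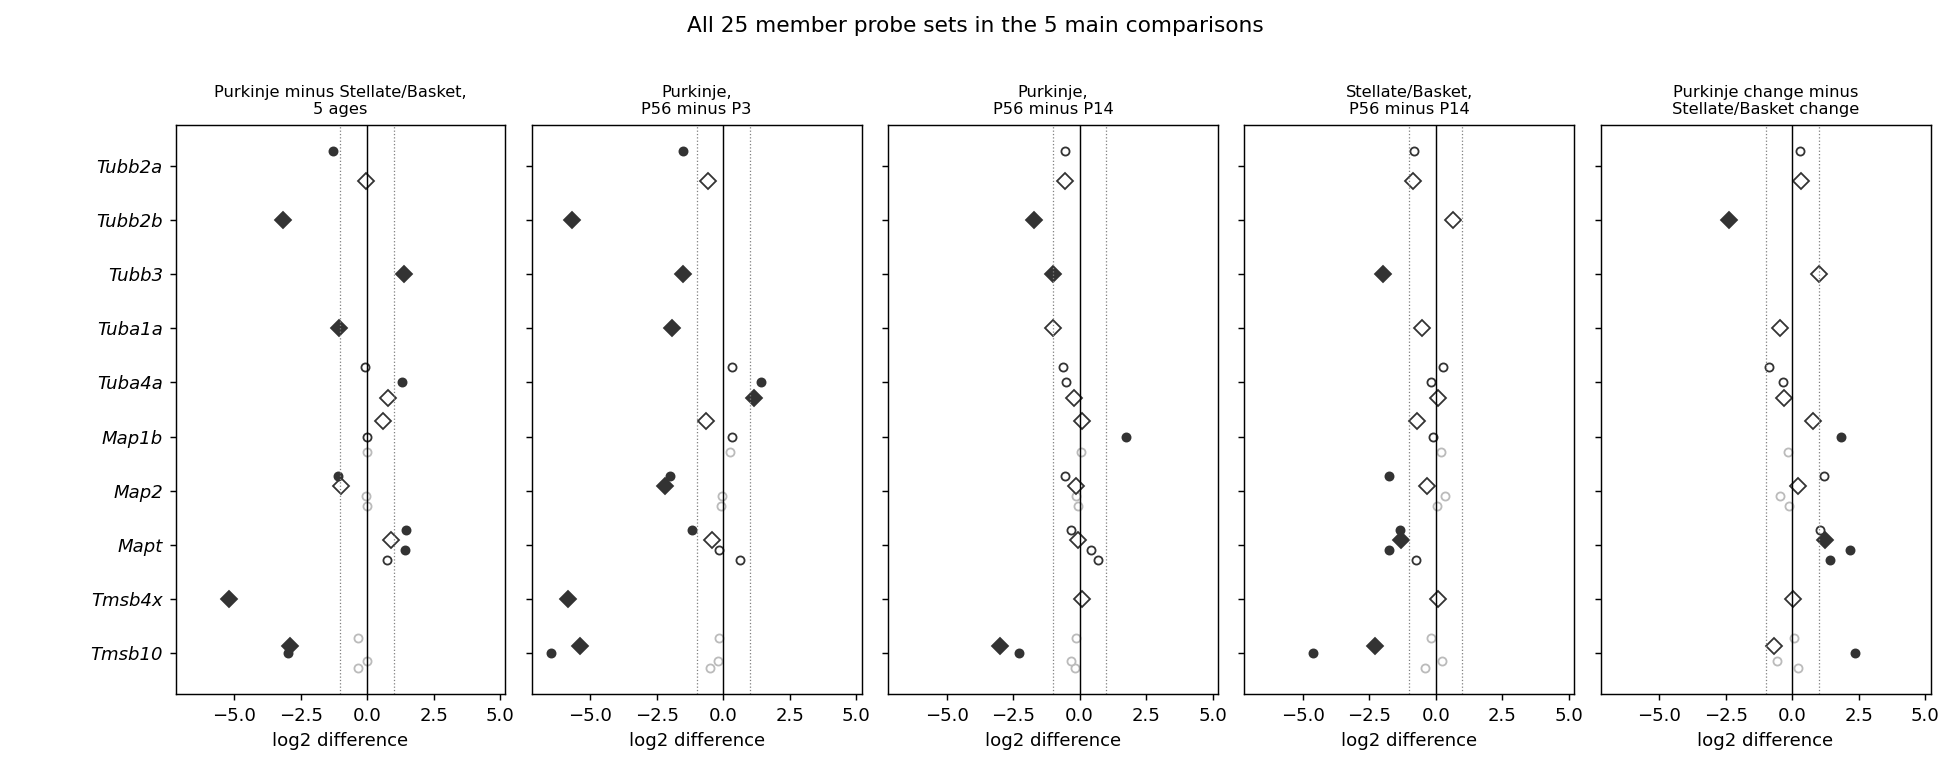
Log2 difference (horizontal axes) of each of the 25 probe sets by gene (vertical axis) in 5 comparisons, 1 per panel. Diamonds are the probe set with the highest mean, circles the others, filled symbols are called, pale edges have a mean below 6.5, and dotted lines mark a difference of 1. The Tubb2a and Map1b probe sets disagree, and both upper Tmsb10 probe sets fall in each age comparison.

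The order of the 12 group means shows where levels break. For Tmsb4x, all Stellate/Basket groups and Purkinje P3 and P7 formed an upper block without overlap with the Purkinje groups of P14 to P56. For Tuba4a the order was inverted, with the Purkinje groups of P14 to P56 above all other groups. For Tuba1a, the Purkinje P3 and P7 and Stellate/Basket P14 to P28 groups came first, then Stellate/Basket P35 and P56, then the later Purkinje groups, with no overlap at either break. For Tubb2b and Tmsb10, the top groups were Purkinje P7 and P3 with Stellate/Basket P56 for Tubb2b and Stellate/Basket P14 for Tmsb10, and most neighbours below them overlapped. Neighbouring groups of Map2 and of Tubb2a overlapped throughout.

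An F test over all ages of a cell type asks whether any age differs. Over the 7 Purkinje ages all 10 genes passed it, as did 56% of all genes. Over the Purkinje ages P14 to P56, Tmsb10, Tmsb4x, Tuba1a, Tubb2a, Tubb2b, Tubb3 and Map2 passed and Tuba4a, Map1b and Mapt did not (28.7% of all genes passed). Over the 5 Stellate/Basket ages, Map1b, Mapt, Tuba1a, Tubb2a and Tubb3 passed (40% of all genes), and Tmsb4x had an adjusted p of 0.998. Over P14 to P35, without the P56 arrays, Map1b, Mapt and Tubb3 passed (15.8% of all genes). Tuba1a and Tubb2a did not pass there (adjusted p = 0.169 and 0.289).

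Across the 12 group means, Tuba1a and Tmsb10 followed each other most closely among the 10 genes (r = 0.961, a description over 12 group means that share cell types and ages). Tubb3 and Mapt (r = 0.937), Tubb2b and Tmsb4x (r = 0.932) and Tubb2b and Tuba1a (r = 0.919) came next, and Tubb2b and Tuba4a ran opposite (r = -0.908). Among 8289 genes whose group means span at least 1, those nearest to Tmsb4x were Zic1, a transcription factor of cerebellar granule cells and interneurons (0.985), the AMPA receptor gene Gria4 (0.984) and Fermt2 (0.979). Nearest to Mapt were Nsg2 (0.990), the intermediate filament gene Ina (0.954) and the stathmin Stmn4 (0.951). Tubb2b was nearest to Marcks (0.974), Clic1 (0.967) and Ddah1 (0.959), and Tuba1a to Rtn3 (0.976), Cspg5 (0.975) and Rap2b (0.966). For Tmsb10 they were Rpsa (0.967), Mknk2 (0.965) and Rps28 (0.961), and for Tuba4a P4htm (0.977), Cbx6 (0.971) and Plbd2 (0.969). For Tubb3 they were Dhx57 (0.956), Eif5a (0.955) and Tln2 (0.952), and for Tubb2a Fbll1 (0.932), Taf5l (0.929) and Mllt11 (0.928). Map1b was nearest to Uchl1 (0.954), Ints6 (0.932) and Mgst3 (0.931), and Map2 to Snx18 (0.950), Sh3bp5 (0.921) and Tmtc2 (0.898).

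For the list counts below, the shares of all genes called were 11.5% between the cell types and 12.2% over P14 to P35. In Purkinje cells they were 16.5% for P56 minus P3 and 1.65% for P56 minus P14. In Stellate/Basket cells they were 18.7% for P56 minus P14 and 5.44% for P35 minus P14. Among 10 other tubulin genes, Tuba8 alone was called between the cell types, at 10.96 in Purkinje and 8.56 in Stellate/Basket cells (+2.39 ± 0.16). Over P14 to P35, 1 of the 10 was called higher and none lower. In Purkinje cells Tuba8 rose between P3 and P56 to 10.87, against 6.22 at P3, and Tubb5 fell by 1.58. In Stellate/Basket cells 3 of the 10 fell between P14 and P56, with Tuba8 at -2.10 and the γ-tubulin Tubg1 at -1.39, and P35 minus P14 gave 1 fall, Tubg1 at -1.04. No other tubulin was called between P14 and P56 in Purkinje cells.

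Of 15 further microtubule-associated proteins, 2 were higher (Mtcl1 +1.47, Map7d2 +1.34) and 2 lower in Purkinje cells (the migration gene Dcx -2.17, its relative Dclk1 -1.29). Over P14 to P35 the counts were 2 higher and 3 lower. Between P3 and P56 in Purkinje cells 4 rose and 5 fell. Dcx was at 5.94 at P56, against 12.28 at P3, and Map6, which stabilises microtubules, fell by 2.09, while Tppp rose by 2.11. No member of this list was called between P14 and P56 in Purkinje cells. That interval held 2 rises in Stellate/Basket cells (Map4 +1.94, Map1a +1.67) and 3 falls, with Dcx at -5.08. P35 minus P14 gave 1 rise and 2 falls, with Dcx at -4.05, while Map4 and Map1a were at +0.79 and +0.28 and were not called.

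Of 9 stathmins, which bind free tubulin, and collapsin response mediators, 2 were higher (Stmn4 +1.72, Stmn2 +1.49) and 2 lower (Dpysl3 -1.83, Dpysl4 -1.11) in Purkinje cells. Over P14 to P35 the counts were also 2 higher and 2 lower. Dpysl3 and Dpysl4 fell in Purkinje cells between P3 and P56 (-6.29 and -3.36) and again between P14 and P56 (-1.66 and -1.24). Of the 9, 6 fell in Stellate/Basket cells between P14 and P56 and none rose, against 12.2% of all genes called lower. The median was -1.34 against 0.06 over all genes, and P35 minus P14 gave 7 falls and no rise. For 7 of the 9 the Purkinje change minus the Stellate/Basket change was called above 0, against 12.8% of all genes. To P35, without the P56 arrays, this held for 2, where 2.47% of all genes were called in either direction. Dcx, Dpysl3 and Stmn2 are also on the immature neuron marker list.

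Of 16 genes for microtubule ends and severing, Clasp1 was higher in Purkinje cells (+1.09). Of 15 genes for tubulin folding and modification, the polyglutamylase Ttll7 was higher (+1.19). Of 15 kinesin and dynein genes, 3 were higher, led by Kif3a (+1.94) and Dync1i1 (+1.12), and Kif21b was lower (-1.20). Of 11 kinases that act on tau and other microtubule proteins and their activators, Cdk5 was higher (+1.44). Over P14 to P35 the counts were 1 higher and 2 lower for microtubule ends, and 2 higher and 2 lower for kinesins and dyneins. Among the kinases 1 was higher, and no folding or modification gene, Ttll7 included, was called. Between P3 and P56 in Purkinje cells these 4 lists held 5 rises and 8 falls, among them Ttll7 (+3.39), Kif21b (-3.26), Svbp, a partner of the tubulin detyrosinating enzymes (-2.25), and Mapre1, which marks growing ends (-1.94). None of them was called between P14 and P56 in Purkinje cells, whereas in Stellate/Basket cells 17 fell and 1, Fign, rose, against 12.2% of all genes called lower and 6.45% higher. Without the P56 arrays, P35 minus P14 in Stellate/Basket cells gave 9 falls and no rise in these lists, against 5.44% of all genes called.

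Of 13 actin and actin monomer genes beside the thymosins, Cap2, an actin recycling protein, was higher in Purkinje cells (10.54 against 8.21 in Stellate/Basket cells) and no gene was lower. Over P14 to P35, 1 of the 13 was higher and none lower. Cap2 rose between P3 and P56 in Purkinje cells (+3.91) and between P14 and P56 in Stellate/Basket cells (+3.84, and +2.08 for P35 minus P14), and its relative Cap1 rose between P14 and P56 in Purkinje cells (+1.61). Cofilin 1 (Cfl1), which severs actin filaments, fell in Stellate/Basket cells between P14 and P56 (-1.27), and P35 minus P14 was -0.37, not called. Median differences between the cell types were within -0.07 and 0.35 for these 8 lists, against 0.02 over all genes.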

How the data were processed

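The deposited table holds log2 expression values per probe set, normalized by the authors before deposit. R 2.9.1 and GCRMA appear in the submitters' processing notes, with no role or order stated there. Per the labels' protocols, polyadenylated RNA was amplified in 2 rounds and labelled with biotin. Of 42 columns, 2 (Stellate/Basket P35 replicate 3 and P56 replicate 2) equal the mean of other columns of their group within 1e-08 and were left out, which leaves 40 arrays. No detection calls were used, which leaves folds against low values uncertain.

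The fit took 32918 probe sets that carry 1 gene symbol and exceed 5 (log2) in 3 or more arrays, the 25 described here among them. It was made in R 4.3.3 using limma 3.58.1 (lmFit and eBayes) on the 12 group means, and each comparison had its own Benjamini-Hochberg adjustment across all fitted probe sets. Where a gene has several probe sets, the one highest on average over the arrays stands for it. Tables were read with Python 3.11.15 and pandas 2.3.3, and the fit was tested on simulated data.

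The genes and lists were chosen with earlier results of these data known. For each further list, up to 2 called genes per direction with the largest difference are named, and for each of the 10 genes the 3 others with the highest correlation of group means. Alternatives were other filters, scalings, probe set rules, ages and covariates, a replicate block, array weights and leaving out each array. The glial marker covariate and the fit without the Purkinje P3 and P7 and Stellate/Basket P56 arrays were added after seeing the data.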

Additional observations from a re-analysis of the deposited data

Results flagged for a closer look

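In 4 of the 60 combinations of gene and group that hold 4 arrays, 1 array lay far from the others, and chance alone flags about 1 in 20 such groups. Purkinje P21 replicate 1 was low for Map1b, at 8.58 against 10.23 to 10.53 in the other 3 arrays, and for Map2, at 4.82 against 6.40 to 6.46. Purkinje P28 replicate 1 was high for Tmsb4x, at 9.77 against 6.82 to 7.12. Stellate/Basket P14 replicate 4 was high for Tmsb4x, at 12.72 against 12.44 to 12.47, within the range of the other ages.

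For 2 of the 10 genes the change between P14 and P56 differed between the cell types in a test of the difference itself. The Purkinje change minus the Stellate/Basket change was 1.24 for Mapt and -2.37 for Tubb2b, and these values use the 2 Stellate/Basket arrays of P56, whose marker genes go against their label. To P35 they were +0.74 for Mapt and +0.72 for Tubb2b, neither called, while another Mapt probe set was called to P35 as well (+1.65, adjusted p = 0.00154).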

How the results depend on the processing

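Apart from leaving out 1 array, 18 other settings were run. The cell type count of 5 called genes became 9 with the adjusted p alone and 2 (Mapt higher, Tuba1a lower) with the glial marker covariate. The Purkinje count of 3 between P14 and P56 became 1 with median centring, 1 with P35 as the last age and 5 with the adjusted p alone. The Stellate/Basket count of 3 became 5 with the adjusted p alone, 1 with P35 as the last age and 1 with the glial covariate. The count of 2 differing changes became 1 with array weights, quantile normalization, median centring, only the compared groups, the glial covariate and the replicate block, and 0 to P35. The Purkinje count of 7 between P3 and P56 was 6 to 8 in every setting. Departures from the group means in same-numbered arrays of the cell types correlated at -0.119 to 0.225 (5 of 14 over 0.1). Whether they pair was not tested, and the main fit did not pair them. With the replicate block Tubb2b was -1.65 in Purkinje cells between P14 and P56 (adjusted p = 0.0677) and -2.10 for its differing change (adjusted p = 0.0800). Leaving out 1 array gave counts of 5 to 6 between the cell types, 6 to 7 between P3 and P56, 1 to 3 between P14 and P56 in either cell type, and 1 to 2 differing changes.

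Signs turned mostly for small values, but also for the Tubb2b difference of changes, which was -2.37 and called in the main fit. Between P14 and P56 in Purkinje cells, Mapt was 0.17 with the mean of its probe sets and 0.033 with median centring, Map2 0.021 with array weights and 0.089 with Xist as a covariate, Map1b -0.042 with quantile normalization and -0.44 to P35, and Tmsb4x -0.24 with Xist. In Stellate/Basket cells, Tubb2b was -1.11 and Tmsb4x -0.034 to P35, and with the glial covariate Tubb2b was -2.72 (adjusted p = 0.106) and Tmsb4x -4.73 (adjusted p = 0.00365). Of the differing changes, Tmsb10 was 0.27 with the mean of probe sets, Tmsb4x -0.0022 with the block, -0.0021 with quantile normalization and -0.47 with Xist, Tubb2b 0.72 to P35 and 0.94 with the glial covariate, Tubb2a -0.070 to P35 and Map2 -0.10 to P35. With 1 array left out, Purkinje values between P14 and P56 ran from -0.10 to 0.39 for Tmsb4x, -0.24 to 0.019 for Map2 and -0.19 to 0.0094 for Mapt. Stellate/Basket values ran from -0.66 to 0.82 for Tuba4a, -0.90 to 0.21 for Map2 and -0.24 to 0.38 for Tmsb4x. Differing changes ran from -1.04 to 0.44 for Tuba4a, -0.35 to 0.76 for Map2 and -0.29 to 0.33 for Tmsb4x. The cause of these shifts was not tested. Signal near the array medians limits Tmsb4x, Tubb2b and Tmsb10 in Purkinje cells from P14.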

Other observations

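The 3 Purkinje arrays of P14 had Xist at 6.47, 6.55 and 6.59 and the Y-linked gene Eif2s3y at 9.02, 8.82 and 8.44. The Stellate/Basket arrays of P14 had Xist at 12.77 to 12.88, although both groups are labelled male.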
